A study of Homo sapiens with 3 samples.

Results

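In PANC-1, an established line of human pancreatic ductal carcinoma cells, 730 PHF13 peaks lay near an annotated gene start, carried an AP-1 site at their summit and did not touch an EZH2 peak. The peaks were chosen by 3 criteria that use measured values: no base shared with any EZH2 peak, a summit within 5000 bp of the transcription start site (TSS) of any annotated transcript, and at least 1 exact match to TGACTCA or TGAGTCA in the 200 bp centred on the summit. TGACTCA and TGAGTCA are the 2 strands of a single site. The 730 peaks made up 11.2% of the 6505 PHF13-only peaks near a TSS, and were drawn from 19039 PHF13 and 21639 EZH2 peaks, 40678 in all. The study sequenced 3 libraries, 1 each from a PHF13 antibody, an EZH2 antibody and input chromatin. The cells were of wildtype genotype, no treatment was listed, and the chromatin was fixed with the protein crosslinker EGS before formaldehyde. Each list thus describes 1 library of a single cell line, without replicates, and a binding site that MACS2 did not call counts as absent.

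AP-1 is a family of dimeric basic leucine zipper (bZIP) factors built from FOS, JUN and related subunits. Its classical target is the 7-bp site above, known as the TPA response element, which is found in many enhancers that respond to growth factors, stress and tissue injury. PHF13 is a PHD-finger protein that reads methylated lysine 4 of histone H3, a mark of active gene starts. EZH2 is the methyltransferase of Polycomb repressive complex 2, which deposits the repressive methylation of lysine 27.

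The sequences below come from the GRCh37 (hg19) genome and are written 5′ to 3′ on the plus strand, with every AP-1 site in capitals. The first 6 show the site nearest the summit in the single-copy peaks with the highest fold enrichment, named by the gene whose TSS is closest. They let the constant core be compared with its variable surroundings. They lie at chr14:22802585-22802645, chr12:59271042-59271102, chr7:34788166-34788226, chr10:33553317-33553377, chr3:194314272-194314332 and chr5:142120225-142120285.
ENSG00000256221: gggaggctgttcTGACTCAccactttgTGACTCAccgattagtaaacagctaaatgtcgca
LRIG3: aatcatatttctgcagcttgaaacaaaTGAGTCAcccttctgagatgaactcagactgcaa
NCAPD2P1: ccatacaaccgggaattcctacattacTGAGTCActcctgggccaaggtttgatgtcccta
NRP1: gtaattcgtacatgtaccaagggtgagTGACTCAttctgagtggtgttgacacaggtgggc
TMEM44: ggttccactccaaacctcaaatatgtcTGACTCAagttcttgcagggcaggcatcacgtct
ENSG00000287203: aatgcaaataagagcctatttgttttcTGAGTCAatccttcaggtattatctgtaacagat

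The next 3 are the peaks with the most sites, shown to illustrate clustered matches, at chr16:90061638-90061814 (6 sites), chr14:58300100-58300295 (3 sites) and chrX:119683942-119684030 (3 sites).
AFG3L1P: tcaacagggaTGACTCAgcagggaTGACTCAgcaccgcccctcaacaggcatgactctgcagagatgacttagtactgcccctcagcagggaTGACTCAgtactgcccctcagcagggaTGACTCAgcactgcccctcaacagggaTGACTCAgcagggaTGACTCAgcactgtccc
RN7SKP99: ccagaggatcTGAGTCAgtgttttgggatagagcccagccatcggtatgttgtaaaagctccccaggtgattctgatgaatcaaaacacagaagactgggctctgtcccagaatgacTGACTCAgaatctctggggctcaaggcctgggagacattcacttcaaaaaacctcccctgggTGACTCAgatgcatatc
CUL4B: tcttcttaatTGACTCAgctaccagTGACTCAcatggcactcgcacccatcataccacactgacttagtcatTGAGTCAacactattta
The AFG3L1P sites repeat within a longer unit, and the median 24-mer beneath this summit occurred 3 times in the genome. The other two peaks were single-copy.

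Most of these peaks were not at the main promoter of a gene. The summit lay in an intron at 62.3% of them, in an exon at 15.3% and between genes at 22.3%. The closest TSS belonged to a protein-coding gene at 51.8% of the peaks, to a long non-coding RNA (lncRNA) gene at 28.6% and to another class, such as pseudogenes and small RNAs, at the remaining 19.6%. Because any annotated transcript counted, many of these starts are minor ones. A TSS of a coding transcript was within 5 kb of 41.4% of the peaks (95% Wilson interval 37.8 to 45.0), and the TSS of a gene's canonical coding transcript within 5 kb of 24.5% (21.5 to 27.8). All intervals given here cover counting error in these lists only, and treat peaks as independent.

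Distances to the TSS spanned the whole permitted range, from 0 to 4996 bp, with a median of 1624 bp (95% interval 1448 to 1905). The summit was within 100 bp of a TSS at 93 peaks (12.7%), within 250 bp at 20.3% and within 1 kb at 37.4%. It fell downstream of the closest TSS at 49.2% of the peaks, so neither side of the start was favoured. The peaks were spread over all chromosomes except Y, with 80 on chromosome 1 and 7 each on chromosomes 13 and X. Among PHF13-only peaks near a TSS the share with a site ranged on the autosomes from 8.91% on chromosome 4 to 16.8% on chromosome 21, and the 2 intervals overlapped (4.76 to 16.1 and 10.8 to 25.3).

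Compared with the 5775 PHF13-only peaks near a TSS that had no AP-1 site, the AP-1 peaks lay farther from the start. Of those without a site 53.2% were within 1 kb, against 37.4% of the AP-1 peaks, a difference of −15.8 percentage points (95% Newcombe interval −19.5 to −12.02). The difference moved with CpG content. An observed-to-expected CpG ratio of at least 0.6 over 500 bp, typical of CpG-island promoters, was found at 9.04% of the AP-1 peaks, 33.0% of the gene-start peaks without a site and 0.666% of the distal AP-1 peaks, the last being the 1352 PHF13-only peaks with a site farther than 5 kb from any TSS. Among peaks with a ratio under 0.6, a split added after seeing the data, the difference within 1 kb was −1.60 points (−5.36 to 2.33), with an interval that included 0.

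The share of peaks with an AP-1 site was also split by distance and CpG content. Over all PHF13-only peaks near a TSS, 8.04% of summits within 100 bp of the start had a site (95% interval 6.61 to 9.75) and 14.8% of those at 2001 to 5000 bp (13.4 to 16.3). In CpG-poor sequence the order was reversed close to the start, with 24.4% at 0 to 100 bp (19.7 to 29.7), 10.03% at 501 to 1000 bp (7.87 to 12.7) and 15.3% at 2001 to 5000 bp (13.8 to 16.9). Multi-copy peaks, however, made up 30 of 283 CpG-poor peaks in the nearest class and 662 of 2117 in the farthest. Among single-copy CpG-poor peaks the shares were 26.9% (21.8 to 32.7) and 20% (18.02 to 22.1), with overlapping intervals. How far the mix of copy classes shaped the reversed order was not tested. In CpG-rich sequence within 100 bp, 24 of 874 summits had a site (2.75%, 1.85 to 4.05). Farther out the CpG-rich share was highest at 501 to 1000 bp, 8.89% (5.16 to 14.9), and 3.33% (1.14 to 9.35) at 2001 to 5000 bp, so it did not differ between the nearest and the farthest class beyond their intervals. The windows 1 kb to either side of those CpG-rich and CpG-poor starts held a site in 2.35% and 4.06% of cases. For reference, a site was present in 2.93% of 200-bp windows centred on the 220784 annotated TSS positions.

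**Figure D1:**
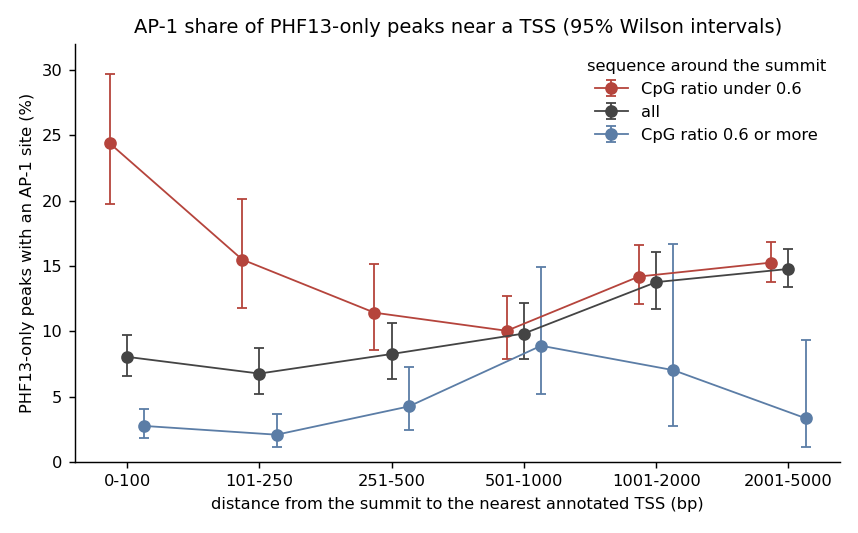
The x axis gives the distance from the PHF13 summit to the closest annotated TSS in 6 classes (bp) and the y axis the percentage of PHF13-only peaks with an AP-1 site in the 200 bp at the summit, with 95% Wilson intervals, for all peaks and split by CpG ratio. CpG-poor peaks within 100 bp of a TSS had the site in 24.4% of cases and CpG-rich ones in 2.75%, and the curve over all peaks lies between them.

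The AP-1 peaks were stronger than the gene-start peaks without a site. Fold enrichment is the ratio of the ChIP fragment pileup at the summit to the local background, after the same small constant is added to both. It had a median of 3.78 (95% interval 3.69 to 3.83) at the AP-1 peaks, with a range of 1.56 to 9.59. The gene-start peaks without a site had a median of 3.33 (3.30 to 3.35), a log2 ratio of 0.18 (0.15 to 0.20). A −log10 q of at least 5, where q is the false discovery rate of the peak caller, was reached by 51.9% of the AP-1 peaks and by 23.4% of the others, and a fold enrichment of at least 5 by 13.8% and 2.55%. The median summit rested on 25 fragments over a background of 5.87, compared with 20 over 5.31. At 87 of the AP-1 peaks the background was at the floor of the list, 4.23, a value these peaks share. These values come from the same library that defined the peaks and are given as a description.

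Distal AP-1 peaks were of similar strength, with a median fold enrichment of 3.84 (3.81 to 3.92) and a log2 ratio of −0.02 (−0.07 to −0.00088) for near against distal peaks. The share with −log10 q of at least 5 was 53.2% there, −1.26 points different (−5.75 to 3.22). Strength also varied little with position relative to the gene. The median fold enrichment was 3.75 (3.53 to 3.92) within 250 bp of the TSS, 3.68 (3.56 to 3.83) at 251 to 1000 bp and 3.81 (3.70 to 3.91) beyond, and the 3 intervals overlapped. It was 3.80 in exons, 3.77 in introns and 3.83 between genes. Peaks in CpG-rich sequence were weaker, with a median of 3.40 (3.27 to 3.68), than those in CpG-poor sequence at 3.80 (3.72 to 3.85).

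Within the peaks, fold enrichment moved with the number and the place of the sites. A single site was present at 605 peaks, with a median fold enrichment of 3.69 (3.63 to 3.79). At the 125 peaks with 2 or more sites it was 4.12 (3.98 to 4.31), and the intervals did not overlap. The 202 distal peaks with 2 or more sites had a median of 4.19 (4.02 to 4.37). Peaks with several sites made up 17.1% of the near and 14.9% of the distal AP-1 peaks, a difference of 2.18 points whose interval included 0 (−1.06 to 5.60). Where there were several, the closest pair was a median of 41 bp apart from centre to centre (35 to 45). Only 5 peaks had 3 or more sites. CUL4B, which encodes the scaffold of a ubiquitin ligase, had the closest TSS to one of them, with a fold enrichment of 5.96 over 37 fragments. The others were near RN7SKP99 (6.23), the lncRNA gene ENSG00000287600 (5.12), AFG3L1P (3.98) and HIVEP3 (3.17), a gene for a zinc-finger protein.

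**Figure D2:**
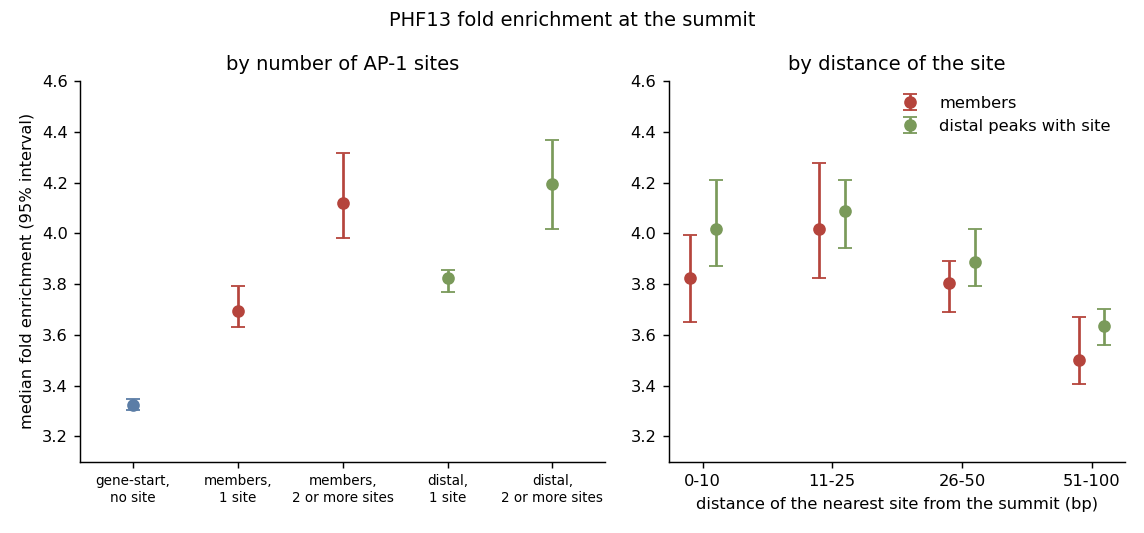
Points are the median PHF13 fold enrichment at the summit with 95% intervals (y axis, a ratio, starting at 3.1 and not at 0), on the left by peak class and number of AP-1 sites and on the right by the distance of the nearest site from the summit in bp; "members" are the 730 near-TSS AP-1 peaks. Medians ran from 3.33 without a site to 3.69 with 1 and 4.12 with 2 or more.

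Only sites inside the 200-bp window counted, at near and distal peaks alike, so part of their closeness to the summit was fixed in advance. Where a peak had several sites only the nearest was used, which also draws the positions towards the summit. Inside the window these nearest sites gathered towards the summit. The nearest site centre was a median of 32 bp from the summit (29 to 36), and 33 bp (31 to 35) at distal AP-1 peaks. It was within 25 bp at 41.2% of the near and 39.6% of the distal peaks. The 20-bp bins on both sides of the summit held 16.2% and 16.6% of the near peaks. The outermost bins, which the edge of the window cuts short, held 3.97% and 5.75%. Fold enrichment was lowest where the site was far off-centre. Its median was 4.02 (3.83 to 4.28) with the site at 11 to 25 bp and 3.50 (3.41 to 3.67) with the site at 51 to 100 bp.

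**Figure D3:**
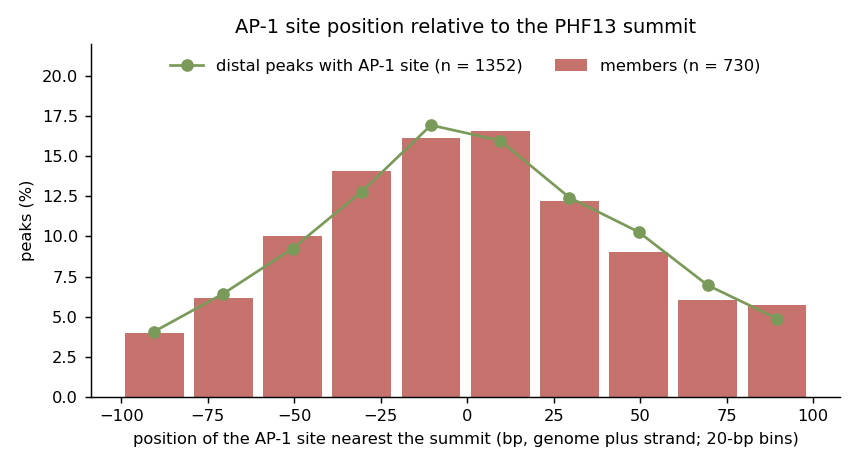
The x axis gives the position of the nearest AP-1 site centre relative to the PHF13 summit (bp, 20-bp bins) and the y axis the percentage of peaks, with bars for the 730 near-TSS AP-1 peaks and a line for the 1352 distal AP-1 peaks. Both distributions peak in the 2 central bins, at 16.2% and 16.6% for the near peaks.

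The peaks just inside and just outside the limits of the rule were as follows. The farthest member was 4996 bp from the TSS of SNORA51, with a fold enrichment of 4.02, and the closest excluded one was 5015 bp from ENSG00000227992, at 3.11. At TXNRD1 the only site was centred 96 bp from the summit (fold enrichment 5.93), and at UQCRBP2 the match at 97 bp crossed the window's edge and was not counted (3.92). The member closest to an EZH2 peak was 3 bp from it, near ENSG00000267649 (3.94). A peak near PABPC1P13 that shared 52 bases with an EZH2 peak was excluded (3.14), and 25 peaks were left out for this reason alone. The median distance of the AP-1 peaks to the closest EZH2 peak was 61661 bp (55993 to 68620). It was 42350 bp (40337 to 44484) for the gene-start peaks without a site.

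The bases beside the site differed between peaks and other places in the genome. The 730 peaks held 863 sites, and each was read as TGACTCA. A T directly before the site or an A directly after it occurred at 16.2% of them (13.9 to 18.8), compared with 19.6% of 1585 sites in distal peaks and 42.6% (39.8 to 45.5) of the 1155 matches found in windows 1 kb to either side of all PHF13 summits. A purine preceded the site in 66.9% of cases and 43.7% of the matches in the side windows. A GC following the site on either strand, which extends it towards the longer element bound by MAF-containing dimers, was present at 19.6% (17.1 to 22.4) of the sites in near peaks, 14.3% (12.7 to 16.1) in distal peaks and 11.9% (10.1 to 13.9) in the side windows. The intervals of these site shares treat sites of the same peak as independent. As a share of peaks, only the exact match TGACTCAGC was counted, which gave 11.8% at near and 9.54% at distal peaks. The difference was 2.24 points (−0.48 to 5.17). This word leaves out a GC that follows TGAGTCA, which the share of sites includes. It is therefore a narrower feature, and its interval does not test the difference in the share of sites.

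Motifs of other factor families were then counted in the same 200-bp windows, as exact matches on both strands. The TEAD site GGAATG, bound by the partners of YAP and TAZ, was present at 151 AP-1 peaks (20.7%, 17.9 to 23.8). It was found at 12.7% (11.8 to 13.6) of the gene-start peaks without an AP-1 site and at 20.6% of the distal AP-1 peaks, whereas windows 1 kb away from the near peaks held it in 9.93% of cases and windows at annotated TSS positions in 9.19%. The difference from gene-start peaks without a site was 8.01 points (5.09 to 11.2). In CpG-poor single-copy sequence, an alternative added after seeing the data, it was 3.80 points (0.37 to 7.51). The forkhead (FOX) site TGTTTAC was present at 7.95% of the AP-1 peaks, 3.83% of the gene-start peaks without a site, 9.69% of the distal AP-1 peaks and 2.10% of annotated TSS windows. The RUNX sites TGTGGTT and TGCGGTT were found at 6.71% of the near and 10.2% of the distal AP-1 peaks, a difference of −3.49 points (−5.85 to −0.95). The windows 1 kb away from the near peaks held them in 3.77% of cases.

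The elements of CpG-island promoters showed the opposite order. The SP/KLF site GGGCGG was present at 11.4% of the AP-1 peaks and 20.95% of the gene-start peaks without a site, a difference of −9.58 points (−11.9 to −6.87), and at 4.51% of the distal AP-1 peaks. The ETS site CCGGAA was present at 3.56%, 6.65% and 2.37% respectively. Annotated TSS windows held these motifs in 29.2% and 11.3% of cases. The windows 1 kb away from the AP-1 peaks held SP/KLF in 6.99% of cases and ETS in 2.33%. For ETS the intervals at the AP-1 peaks and in these windows overlapped (2.44 to 5.17 and 1.67 to 3.24). Matches to AGATAA, which GATA factors bind, were present at 10.00% of the AP-1 peaks and in 11.1% of the windows 1 kb away. The C/EBP matches (TTGCNNAA) gave 10.4% and 9.79%. Both were less frequent at the gene-start peaks without a site, at 6.63% and 7.19%. The NF-Y (GCCAAT), E-box (CACGTG) and NF-kB (GGANTTTCC) matches differed from the gene-start peaks without a site by 0.27, −0.61 and 0.49 points, with intervals that included 0. The cAMP response element TGACGTCA was found at 1 AP-1 peak and the palindromic SMAD element GTCTAGAC at none. Both words were rare throughout, at 0.22% and 0.089% of all 16809 PHF13-only summits. Counts this small cannot show an excess or a deficit.

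Strength was also compared by the presence of a second motif. Median fold enrichment was 3.96 (3.81 to 4.15) with a TEAD site and 3.72 (3.63 to 3.81) without, and 4.16 (3.81 to 4.47) with a FOX site and 3.73 (3.67 to 3.83) without. The intervals overlapped for both motifs, for TEAD only slightly. The TEAD site was a median of 36.5 bp from the nearest AP-1 site (31.5 to 46.5), and at 95 of the 151 peaks it was within 50 bp. Both motifs had to lie in the same 200-bp window and the closest pair was taken, so short distances were partly fixed in advance. Whether the spacing is shorter than these limits impose was not tested.

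**Figure D4:**
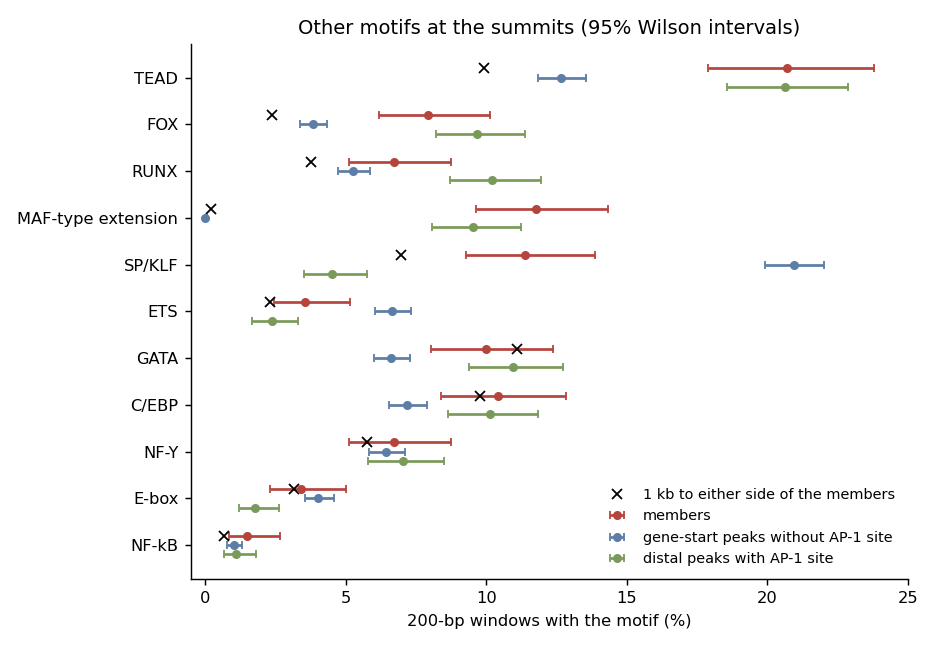
The x axis gives the percentage of 200-bp summit windows with at least 1 match to each motif on the y axis, with 95% Wilson intervals, for the 730 near-TSS AP-1 peaks ("members"), gene-start peaks without an AP-1 site and distal AP-1 peaks, and crosses mark windows 1 kb to either side of the near AP-1 peaks. TEAD matches were present at 20.7% of the near AP-1 peaks and 12.7% of gene-start peaks without the site, and SP/KLF matches at 11.4% and 20.95%.

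The 20 single-copy peaks with the highest fold enrichment ranged from 6.22 to 9.59 and rested on 33 to 68 fragments. Their closest TSS belonged to a protein-coding gene in 12 cases, but a coding transcript started within 5 kb at only 5 and a canonical one at 2 of them, 13 lay in introns, and 7 held a TEAD site. The strongest (chr14:22802525-22802744, fold enrichment 9.59, −log10 q 34.0, 55 fragments over a background of 4.84) lay in an intron of the lncRNA gene TRD-AS1, 483 bp downstream of the start of the processed pseudogene ENSG00000256221. It held both sites printed above. The next was at LRIG3, which encodes a membrane protein with leucine-rich repeats that modulates growth factor receptors (chr12:59271035-59271324, intron, fold enrichment 8.46), 124 bp downstream of an annotated start and 43133 bp from the canonical one.

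Genes of signalling and the cell surface were among the other peaks of this group. NRP1, a co-receptor for semaphorins and VEGF, had an intronic peak with 2 sites (chr10:33553215-33553473, fold enrichment 7.22), 725 bp upstream of a coding start inside the gene. LTBP1 binds latent TGFβ in the extracellular matrix, and its peak (chr2:33516488-33516714, 6.96) lay in an exon 44 bp from an internal start. ASB2, a substrate adaptor of a ubiquitin ligase, had an intronic peak (6.88) 2203 bp upstream of a coding start. CAB39, a scaffold of the kinase LKB1, had an intronic peak at 6.75. Intronic peaks were also found at the transmembrane protein gene TMEM44 (56 fragments over a background of 7.14), at CFDP1 (6.56), at TBCE (6.38), a tubulin-folding cofactor, at ANKRD2 (6.32) and at ALDH1A2 (6.22), which encodes a retinoic acid-producing enzyme. Exonic peaks were found at ANKRD13A (6.50) and at EHD1 (6.24), an endocytic recycling factor, where the summit was 76 bp upstream of a non-coding transcript's start. EHD1 had the most fragments of the group, 68 over a background of 10.1.

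The remaining strong peaks had a non-coding neighbour. These were the pseudogene NCAPD2P1 (7.44), whose peak lay in an intron of NPSR1, the lncRNA genes ENSG00000287203 (6.98), LINC02941 (6.66), ENSG00000287742 (6.66) and ADAMTS16-DT (6.56), and the small RNA loci RNU6-765P (6.45) and RN7SKP99 (6.23). At ADAMTS16-DT a coding start, that of ADAMTS16, was 4186 bp away.

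Counted by gene, an AP-1 peak lay within 5 kb of a TSS of 442 of 20162 coding genes (2.19%). A PHF13-only peak without a site did so for 3700 (18.4%). The 442 genes shared 423 peaks. With 31 exceptions each gene had 1 peak. SBF2, which encodes a myotubularin-related protein, had 3 weak ones (fold enrichment 2.21 to 3.03), and the genes next in the order, each with 2 peaks, were LTBP1 (4.24 and 6.96), CAB39 (4.94 and 6.75), ITGB5 (3.67 and 5.57) and ANXA2 (5.09 and 5.11).

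Of 13 lists of genes with roles in epithelial cells, carcinoma or AP-1 biology, 8 had at least 1 gene with an AP-1 peak. Together the 13 lists had 24 of 292 genes (8.22%, 5.59 to 11.9), compared with the 2.19% of all protein-coding genes. The listed genes were also above all genes for PHF13-only peaks without a site, at 73 of 292 (25%) compared with 18.4%. The number of annotated starts per gene was not matched, so these shares are descriptive, and the lists were not chosen blind to the data. The 40 ribosomal protein genes of the large subunit, a reference for CpG-island promoters, had no AP-1 peak (0%, up to 8.76), while 10 had a PHF13-only peak without the site. The 24 genes had 28 different peaks, 27 of them single-copy, 19 in introns and 9 with a TEAD site. Only 7 of the 24 genes had an AP-1 peak within 5 kb of the canonical start.

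Keratins had the highest share of any list, 5 of 17 genes (29.4%, 13.3 to 53.1), whereas 1 of the 17 had a peak without a site. These genes encode the intermediate filaments of epithelial cells. KRT7, a keratin of ductal epithelium, had 2 intronic peaks, at chr12:52637767-52638079 (fold enrichment 4.63, −log10 q 11.7) and chr12:52641113-52641462 (4.00, 8.24), which lay 166 and 77 bp upstream of internal starts and 10969 and 14338 bp from the canonical one. The second was also 1719 bp from a start of KRT86, so the 2 genes share it. KRT6B had an intergenic peak 2659 bp upstream of its canonical start (chr12:52848235-52848720, 4.76, 10.6). At KRT80 the summit was 298 bp upstream of the canonical start (chr12:52585958-52586212, 4.04, 9.16), and at KRT19, also a ductal keratin, 2027 bp upstream (chr17:39686502-39686667, 3.95, 5.29). Each of these peaks had 1 site. The list holds only some of the keratins. Over all 55 KRT genes, counted after the values were seen, 6 had an AP-1 peak (10.9%, 5.10 to 21.8), the sixth being KRT32, a hair keratin, with an intronic peak 2417 bp from its canonical start (chr17:39621101-39621345, 5.12, 10.2).

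Among TGFβ ligands, receptors and SMADs, 4 of 32 genes had an AP-1 peak (12.5%, 4.97 to 28.1). LTBP1 had, besides the peak above, one with 2 sites in an exon 20 bp downstream of a coding start (chr2:33500892-33501162, 4.24, −log10 q 8.99). TGIF1, a homeodomain co-repressor of SMADs, had an intergenic peak (chr18:3409169-3409447, 5.02, 13.7) whose median 24-mer occurred 12 times in the genome. SMAD3, a receptor-activated SMAD, had an intronic peak 34 bp upstream of an internal start with the site 7 bp from the summit (chr15:67417936-67418127, 3.71, 7.54), and a weaker intronic one at chr15:67467358-67467501 (3.45, 4.93). TGFBR2, the type II receptor, had an intronic peak (chr3:30653265-30653600, 3.18, 2.86).

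Integrins and laminins had 3 of 31 genes with an AP-1 peak (9.68%, 3.35 to 24.9). ITGB5 had the strongest, in an intron 362 bp upstream of an internal start (chr3:124597516-124598223, 5.57, 18.1). At ITGA3 a peak with 2 sites lay in an exon 4899 bp from the canonical start (chr17:48128463-48128725, 5.14, 16.6). ITGB1, the common β-subunit, had a weaker peak in CpG-rich sequence, 33 bp from a start and 47529 bp from the canonical one (chr10:33294561-33294792, 3.52, 3.66). Of the plasminogen activation genes, 1 of 11 had AP-1 peaks. This was ANXA2, an annexin that serves as a cell-surface receptor for plasminogen, with an intronic peak (chr15:60663445-60663873, 5.11, 15.04) and an exonic one 4869 bp from the canonical start (chr15:60685223-60685410, 5.09, 17.04). Both held a TEAD site as well.

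The actin cytoskeleton and focal adhesion list had 4 of 37 genes with an AP-1 peak (10.8%, 4.29 to 24.7), all intronic. LIMA1, an actin-bundling protein, had one with 2 sites (chr12:50641016-50641305, 4.49, 8.84). BCAR1, a focal adhesion scaffold, had a peak at 4.03 (−log10 q 6.22), and TLN2, a talin, one at 2.69 (1.70). The MAPK list had 3 of 26 genes (11.5%, 4.00 to 29.0). SPRED2, an inhibitor of RAS-to-MAPK signalling, had an intronic peak 6 bp from an annotated start (chr2:65593803-65594155, 4.17, 10.5). The ERK phosphatase gene DUSP5 had one 3568 bp from the canonical start (chr10:112261144-112261359, 3.62, 5.16), and the receptor kinase gene EPHA2 one at 2.86 (3.48).

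Of the AP-1 and related bZIP factors themselves, 2 of 22 had an AP-1 peak (9.09%, 2.53 to 27.8), and both encode partners in MAF-type dimers. MAFK, a small MAF protein, had an intronic peak (chr7:1576657-1577095, 4.02, 9.92) with the site 83 bp from the summit. BACH1, a repressor that pairs with small MAF proteins, had an exonic peak 9 bp from the canonical start in CpG-rich sequence (chr21:30671175-30671318, 3.51, 3.85). In such sequence within 100 bp of a TSS, 2.75% of summits had a site, compared with 2.35% of the windows 1 kb away. Of 24 YAP/TEAD genes, 2 had an AP-1 peak (8.33%, 2.32 to 25.8), and each held a TEAD site. They were the receptor kinase gene AXL, with the AP-1 site 9 bp from the summit (chr19:41731970-41732380, 4.27, 7.65), and WWTR1, which encodes TAZ, with a weak intronic peak (chr3:149258806-149258993, 2.72, 2.13). No gene had an AP-1 peak in the lists of 22 matrix metalloproteinases and inhibitors, 15 EGF receptors and ligands, 14 EMT transcription factors, 20 cytokines and chemokines, and 22 pancreatic lineage factors. The first of these lists leaves out MMP26, which had a weak peak 4863 bp from its canonical start (fold enrichment 2.37, −log10 q 1.39), so that 1 of all 24 MMP genes had one. The upper limits for the shares of the 5 lists lay between 14.9% and 21.5%, above the 2.19% of all genes, so lists of this size could not show a deficit.

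**Figure D5:**
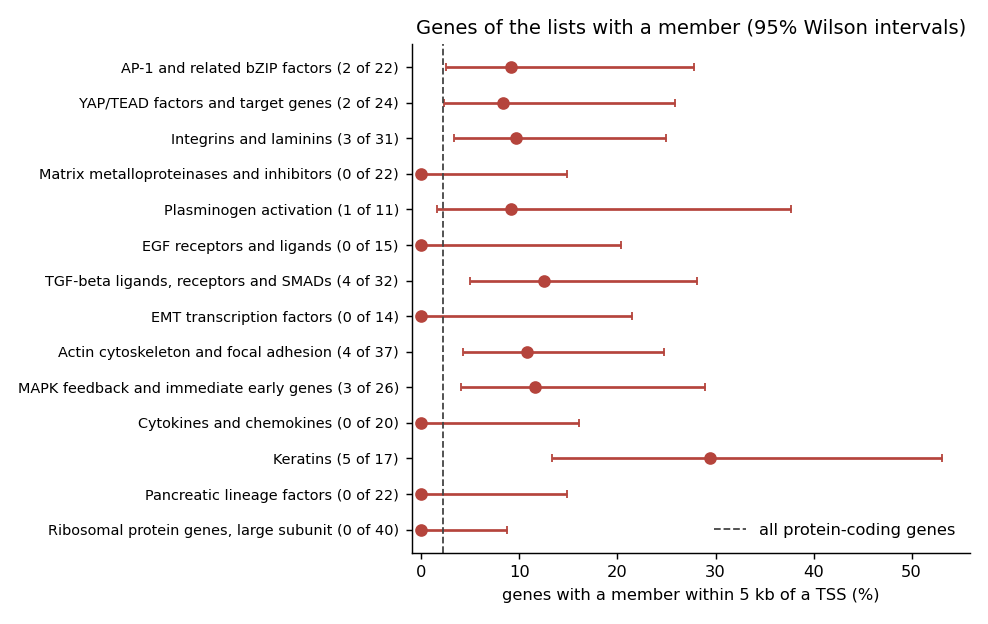
The x axis gives the percentage of genes of each list (y axis, with the count of genes) that had an AP-1 peak within 5 kb of a TSS, with 95% Wilson intervals, and the dashed line marks 2.19%, the share of all protein-coding genes. Keratins are at 29.4%, and 6 of the 14 lists are at 0.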

How the data were processed

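The PHF13 and EZH2 peak lists of PANC-1 cells (1 library each, called against 1 input) were analysed as deposited. Per the methods and the submitters' processing notes, the authors trimmed reads with Trim Galore 0.4.1, aligned them to hg19 with Bowtie2 2.4.1 under default settings, took out duplicates (Picard) and used MACS2 2.2.7.1 to call peaks over the input. No mapping-quality filter is stated. The deposited values are a fold enrichment (a ratio of pileup to local background at the summit, with 1 added to both), p and q as −log10 and a rounded score. The weakest deposited −log10 q is 1.30 for PHF13, looser than the limit in the methods, and the EZH2 peaks were deposited as narrow peaks, whereas the methods describe broad calling.

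Summits were compared with GRCh37 and GENCODE release 44 lifted to it (pysam 0.24.0, Python 3.11.15). A TSS is the 5′ end of any transcript, canonical as GENCODE tags it. Fragments and background at the summit were solved from the deposited fold and p-value (relative error 0.0001; 100% of peaks solved); total read numbers are unknown. A summit is single-copy where the median 24-mer of its 100 bp occurs once. Intervals are Wilson (shares), Newcombe (differences of shares) and order-statistic (medians) at 95%, and these were tested on simulated data. Those of log2 ratios join the intervals of both medians by a root sum of squares, and their coverage was not tested. With 1 library per antibody no p-value is given. Alternatives were −log10 q of at least 3 or 5, a TSS within 1 kb, coding transcripts only, no EZH2 peak within 1000 bp, an AP-1 window of 100 bp and single-copy sequence. Named genes are the 20 single-copy peaks with the highest fold enrichment, up to 5 genes per list by −log10 q, peaks with 3 or more sites, the 5 genes with most peaks, and peaks at the limits of the rule. The members and lists were chosen with earlier results of these data known. The values of 1 gene of the actin list are not reported here.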

Additional observations from a re-analysis of the deposited data

How the results depend on the processing

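No replicate library was analysed, and the 25 fragments at the median summit limit the precision of each fold enrichment. None of the 9 results reversed under 9 alternatives, 2 of which (CpG ratio under 0.6, alone and with single-copy sequence) were chosen after seeing the data. A reversal meant a change of sign in a value whose interval excluded 0. By this definition the counts, the site distance and the difference in peaks with several sites could not reverse. Of 78 repeated values, 58 stayed within the interval, or for counts within 1.5 times, of the reported one, and the others were as follows. The number of AP-1 peaks was 381 at a −log10 q of at least 5, 273 with a TSS within 1 kb and 302 with coding transcripts only. The log2 ratio of fold enrichment to gene-start peaks without a site was 0.13 at a −log10 q of at least 3, 0.066 at 5, 0.21 with the 100-bp window and 0.21 in CpG-poor single-copy sequence. The difference in the CpG-rich share was −28.2 points at a −log10 q of at least 3, −31.5 at 5, −35.8 with a TSS within 1 kb, −39.1 with coding transcripts and −29.6 in single-copy sequence. The difference within 1 kb of a TSS was −28.9 points with coding transcripts, −20.6 in single-copy sequence, −1.60 in CpG-poor sequence and −2.99 in CpG-poor single-copy sequence, where its interval included 0. The site was 28 bp from the summit at a −log10 q of at least 5 and 21 bp with the 100-bp window, which itself bounds the distance. The TEAD difference was 3.80 points in CpG-poor single-copy sequence. With a TSS within 1 kb, 12 genes of the lists had an AP-1 peak. The causes were not tested.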

Other observations

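The CpG-poor starts with an AP-1 site were looked at after the share by distance had been seen. They comprised 69 peaks within 100 bp of a TSS, 68 of them single-copy, with a median fold enrichment of 3.86. The start was that of a protein-coding gene in 39 cases and of a lncRNA gene in 28, but a canonical coding start was within 100 bp at only 3 and a start of any coding transcript at 19. With no limit on q, the site was present at 68 of 253 single-copy (26.9%) and 1 of 30 multi-copy CpG-poor PHF13-only peaks within 100 bp of a TSS. At 2001 to 5000 bp it was present at 291 of 1455 single-copy (20%) and 32 of 662 multi-copy ones (4.83%). The intervals of the 2 single-copy shares overlapped (21.8 to 32.7 and 18.02 to 22.1). Among CpG-poor PHF13-only peaks within 100 bp of a TSS that reached a −log10 q of at least 5, 41 of 97 had a site (42.3%, 95% Wilson interval 32.9 to 52.2), compared with 31.0% (27.3 to 35.0) at 2001 to 5000 bp. These intervals overlapped too, and the 2 shares were not split by copy class. The 5 highest in fold enrichment were LTBP1 (6.96), EHD1 (6.24), WSB2 (5.75), ZFPM2-AS1 (5.54) and ARL14 (5.27), where ARL14 encodes a small GTPase of vesicle transport. S100A2, which encodes a calcium-binding protein of epithelial cells, had a summit 18 bp from a coding start and 893 bp from the canonical one (fold enrichment 4.94, −log10 q 14.8). The lncRNA gene MIR4435-2HG had a summit at 0 bp from an annotated start (5.12). This was the multi-copy peak of the 69, and its median 24-mer occurred 2 times in the genome.

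Further genes with 2 AP-1 peaks were picked after their values were seen. TXNRD1, the cytosolic thioredoxin reductase of the antioxidant response, had an intergenic peak 1701 bp from its canonical start (5.93, 30 fragments) and an intronic one at 4388 bp (6.04, 38 fragments). COL16A1, a fibril-associated collagen, had intronic peaks at 4.70 and 5.13, the first with the site 1 bp from the summit. At TNFRSF12A, the receptor for the cytokine TWEAK, peaks of 3.82 and 4.36 lay in a stretch shared with CLDN6, THOC6 and HCFC1R1, and the second held 2 sites. STAT3 had a pair of weak intronic peaks (3.22 and 3.44, 20 and 22 fragments). The ZFP36 pair stood apart. ZFP36 encodes an mRNA-decay factor, and its peaks had many fragments, 142 and 167, over a background of 87.5 and 87.7, which gave fold enrichments of 1.62 and 1.89, compared with a median background of 5.87 over all 730 peaks.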
